A study of Mus musculus with 14 samples.

Results

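Microtubules and the proteins that bind, sever, anchor and travel along them build the axon and dendrites of a young neuron, and 50 genes of this machinery were followed in cortical neurons with and without a Cre meant to remove Lhx2. The genes were chosen by symbol as a module of tubulins, microtubule-associated proteins, growth cone proteins, neurofilaments and kinesins. All 50 were present in both count tables, among 25229 gene symbols in one and 55353 in the other, and all 50 passed the filter on low counts in both. The lowest count of any member in any library was 201 in the first table and 172 in the second.

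The RNA came from cortical layer II/III that had been microdissected at postnatal day 5 (P5), and every animal carried Lhx2lox/lox, the floxed allele of a LIM-homeodomain transcription factor. In the progenitor experiment an EGFP plasmid (control, n = 4) or a Cre-EGFP plasmid (labelled mutant, n = 4) was electroporated at E15.5, so that Cre reached dividing progenitors and the neurons born from them. In the postmitotic experiment EGFP was electroporated into Lhx2lox/lox cortex (control, n = 3) or into NexCre/+; Lhx2lox/lox cortex (labelled mutant, n = 3). NexCre is a Cre gene placed at the Neurod6 locus, which is switched on in excitatory neurons as they leave the cell cycle. As models the 2 experiments differ: the plasmid reaches only electroporated cells, whereas NexCre acts in excitatory neurons across the cortex. The labels name no sort, so the dissected tissue can hold unelectroporated cells, and they do not say whether libraries came from separate animals, so p-values measure the spread between these libraries only. In bulk tissue, fewer cells of a type and less RNA per cell cannot be told apart.

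Library totals were 22677019 to 29497595 counts in the progenitor and 21605777 to 25891416 counts in the postmitotic experiment, of which the 50 genes took 5.52% to 6.28% and 6.16% to 6.74%. Levels are given as CPM, each gene's share of the library's counts, with library sizes scaled by the trimmed mean of M-values. Lhx2 itself was not lower in the libraries labelled mutant: 127 ± 9.10 CPM in progenitor controls against 130 ± 11.4 CPM in those labelled mutant (SD, n = 4 each), and 147 ± 3.48 against 179 ± 7.41 CPM in the postmitotic experiment (SD, n = 3 each). In the postmitotic experiment Lhx2 was called higher, with a log2 fold change of 0.29 ± 0.06 (edgeR adjusted p = 0.0276), and it lost that call when any library but number 1 labelled mutant was left out (adjusted p at most 0.184). A count over the whole gene does not show whether the floxed exons were present, so the groups are called by their labels throughout and every direction below rests on those labels. Y-linked RNA stood above 1 CPM in 0 of 4 progenitor controls but 3 of 4 progenitor libraries labelled mutant, and in 2 of 3 postmitotic controls and 1 of 3 labelled mutant, so sex and label nearly coincide in the progenitor experiment. Progenitor library 3 labelled mutant held both Y-linked RNA (99.4 CPM) and Xist, an RNA of female cells (554 CPM). Whether that library pooled animals of both sexes was not tested.

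Alpha- and beta-tubulin pair into the dimers that make the microtubule wall, and newborn neurons use a small set of isotypes (Tuba1a, Tubb2b, Tubb3, Tubb5) in large amounts, while others such as Tuba4a and Tubb4a belong to more mature neurons. Structural proteins such as tau, Map1b and Map2 stabilise the lattice, end-binding proteins and navigators ride its growing ends, stathmins and severing enzymes take it apart, and doublecortin stabilises microtubules in migrating neurons. Neurofilaments then fill the maturing axon, ankyrins tie membrane proteins to the cytoskeleton beneath, and kinesins carry cargo along the track.

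Tubulin isotypes differ mainly in the tail at the end of the protein, which motors and modifying enzymes read, and they are otherwise so alike that reads can be shared between genes. The last 60 coding bases before the stop codon are therefore shown for the 5 beta-tubulin members, read from the GRCm38 reference with GENCODE M21 gene models. Capitals mark bases that differ from Tubb2b in a global alignment of the whole coding sequences, bases without a partner included.
Tubb2b: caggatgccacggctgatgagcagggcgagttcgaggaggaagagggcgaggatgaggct
Tubb2a: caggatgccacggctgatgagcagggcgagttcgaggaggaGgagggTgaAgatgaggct
Tubb3: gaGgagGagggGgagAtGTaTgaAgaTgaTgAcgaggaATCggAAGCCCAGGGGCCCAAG
Tubb4a: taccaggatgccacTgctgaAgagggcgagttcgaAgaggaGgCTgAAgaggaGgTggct
Tubb5: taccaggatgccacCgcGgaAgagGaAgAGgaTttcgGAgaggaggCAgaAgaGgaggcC
Tubb3 lies on the plus strand at chr8:123421620-123421679, and the others on the minus strand at chr13:34127474-34127533 (Tubb2b), chr13:34074471-34074530 (Tubb2a), chr17:57080693-57080752 (Tubb4a) and chr17:35834985-35835044 (Tubb5). Tubb2a differed from Tubb2b at 3 of these bases and matched it at 96.5% of the coding sequence, whereas Tubb3, Tubb4a and Tubb5 matched it at 84.3%, 84.7% and 84.2%. None of the 3 differing bases of Tubb2a changes the encoded amino acid, so this stretch encodes the same tail in Tubb2a and Tubb2b. Over whole exons, the share of 150-base windows found word for word in another gene was 54.7% for Tuba1a, 51.5% for Tuba1b, 27.9% for Tubb2a and 18.8% for Tubb2b, so the counts of these 4 genes are uncertain. That share was 7.9% for Stmn1, 0.509% for Islr2 and 0.466% for Nav2, and 0% for Tuba4a, Tubb3, Tubb4a and Tubb5.

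Per kilobase of exon, Tuba1a was the most abundant member in control libraries of both experiments, at 3377 ± 443 CPM per kb in the progenitor (SD, n = 4) and 3956 ± 106 CPM per kb in the postmitotic experiment (SD, n = 3). Tubb2b, Tubb2a, Tubb3 and Basp1, an abundant growth cone membrane protein, followed in that order in both. In progenitor controls, Tubb2b at 1454 ± 83.7 and Tubb2a at 1385 ± 157 CPM per kb stood within their SD of each other. The severing subunit Katna1 (4.10 CPM per kb), the heavy neurofilament Nefh (4.63) and the actin nucleator Cobl (6.42) were at the bottom of the progenitor order, and the same 3 genes closed the postmitotic one.

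In the progenitor experiment 7 of the 50 members rose and 7 fell in the libraries labelled mutant, by edgeR's quasi-likelihood test with an adjusted p under 0.05. Those that rose were Nav2, Dcx, Dclk2, Map2, Ank3, Tubb2b and Map1b, and those that fell were Tuba4a, Tubb2a, Nefh, Ina, Map7d2, Dpysl4 and Kif5a. The 14 calls are 28% of the members, beside 23.4% of all 15295 genes tested, with 12% of genes higher and 11.4% lower, so the number of calls was near the background in both directions. The median log2 fold change over the members was 0.01, beside 0.00 over all genes, and the median size was 0.14, beside 0.16. In the postmitotic experiment 3 of 50 rose (Islr2, Cobl and Nefl), which is 6%, beside 1.96% of all 17775 genes, of which 0.895% were higher and 1.06% lower. No member was called lower there by edgeR, DESeq2 or limma-voom, while 2 were lower at an unadjusted p under 0.05. The postmitotic median was 0.05, with 36 of 50 values above 0, beside -0.00 over all genes. No member was called by edgeR in both experiments, with 3 members called in the postmitotic one. The share of all genes called in both is not given, so the lack of shared calls is not read as a difference between the experiments.

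**Figure D1:**
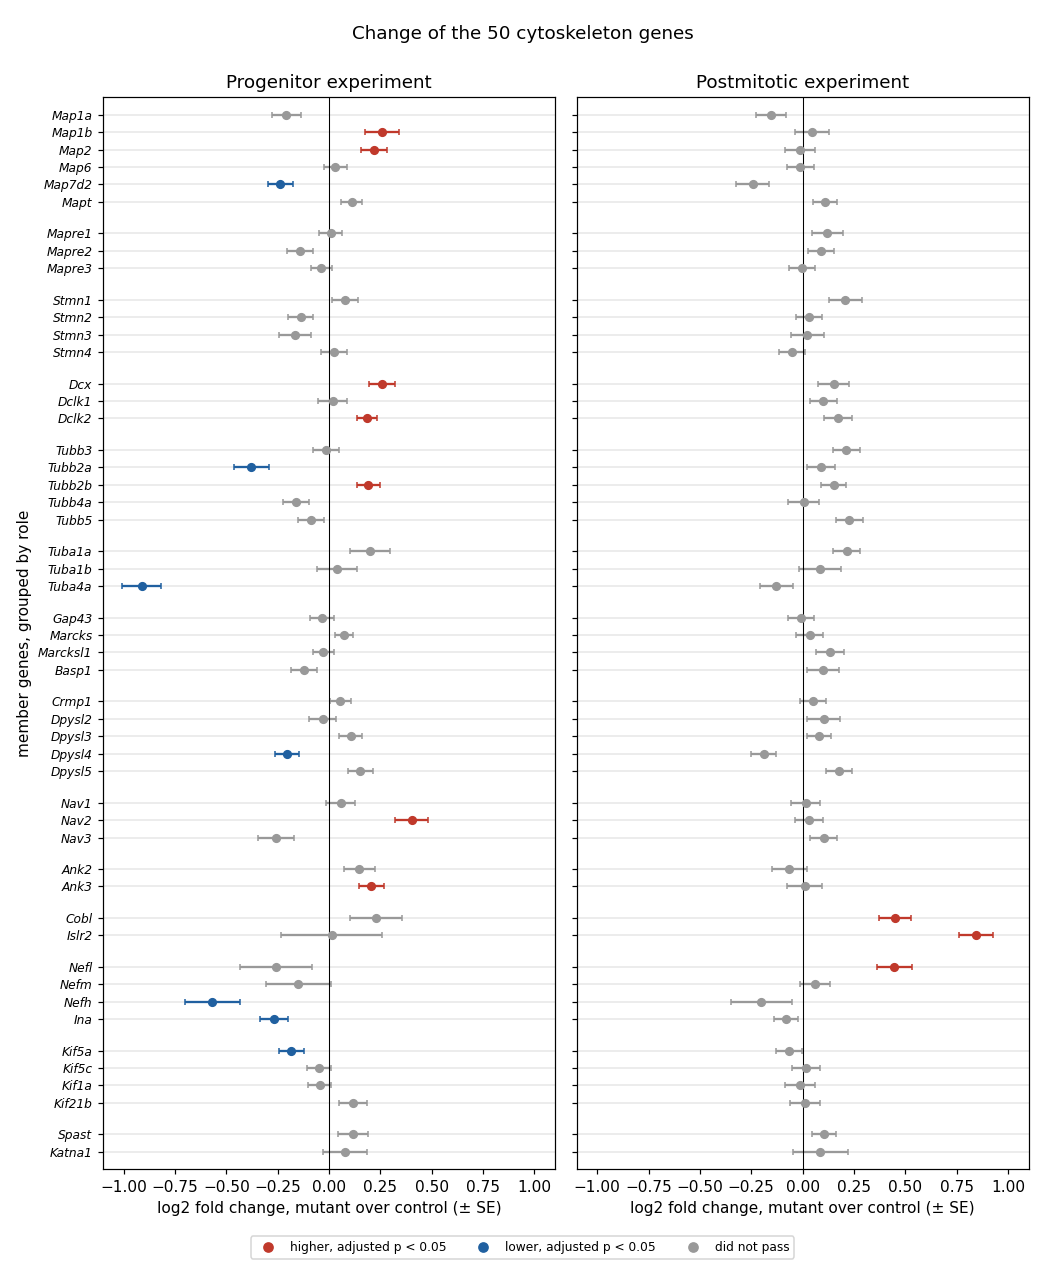
Log2 fold change of each of the 50 genes (points, with SE as bars), libraries labelled mutant over control, in the progenitor (left) and postmitotic (right) experiments, grouped by role from structural proteins at the top to severing enzymes at the bottom. Red and blue points passed an adjusted p of 0.05: 7 higher and 7 lower on the left, 3 higher on the right, with Tuba4a the lowest point and Islr2 the highest.

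The largest change of any member in the progenitor experiment was a fall of the alpha-tubulin Tuba4a (chromosome 1, 75214228 to 75219865, minus strand). Its level was 162, 135, 118 and 151 CPM in controls 1 to 4, and 70.0, 82.1, 78.8 and 69.5 CPM in the libraries labelled mutant. Every control lay above every library labelled mutant, with means of 141 ± 19.1 and 75.1 ± 6.36 CPM (SD, n = 4 each). The fitted ratio was 0.531, a log2 fold change of -0.91 ± 0.10 (SE; edgeR adjusted p = 0.00021). Postmitotic controls were at 61.7, 66.7 and 73.4 CPM and those labelled mutant at 62.8, 58.6 and 63.3 CPM, which overlap. The change differed between experiments by 0.79 ± 0.13 on the log2 scale (edgeR adjusted p = 0.00304). Stk16 overlaps Tuba4a on the other strand, and whether counting used strand is unknown here. The other alpha-tubulins did not pass the test: Tuba1a was at 0.20 and Tuba1b at 0.04 on the log2 scale in the progenitor experiment, and at 0.21 and 0.09 in the postmitotic one.

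Tubb2a (chromosome 13, 34074274 to 34078007, minus strand) and its neighbour Tubb2b moved in opposite directions in the progenitor experiment. Tubb2a was at 2602.5, 2138.3, 2141.0 and 2040.1 CPM in controls and at 1773.1, 1870.3, 1691.8 and 1531.9 CPM in the libraries labelled mutant. The groups did not overlap, and the log2 fold change was -0.38 ± 0.08 (edgeR adjusted p = 0.00861). Tubb2b, the isotype that young neurons use most, spanned 3158.2 to 3542.9 CPM in controls and 3621.1 to 3934.2 CPM in those labelled mutant, a log2 fold change of 0.19 ± 0.06 (edgeR adjusted p = 0.0301). Tubb2b lost its call without control 2 or 3 or library 2, 3 or 4 labelled mutant (adjusted p at most 0.0784). The summed level of the pair was 5567 ± 352 CPM in controls and 5523 ± 198 CPM in those labelled mutant, and the share of Tubb2a in that sum was 40.0 ± 2.64% and 31.1 ± 1.94% (SD, n = 4 each). That share ran from 36.5% to 43.0% in controls and from 28.5% to 32.9% in the others, with no overlap. The postmitotic shares were 32.1 ± 0.454% and 31.2 ± 0.741% (SD, n = 3 each). Tubb2a itself was at 2484.1, 2762.7 and 2755.8 CPM in postmitotic controls and at 3078.4, 2709.6 and 2725.7 CPM in those labelled mutant. These overlap, and the experiments differed by 0.47 ± 0.12 (edgeR adjusted p = 0.0245). That difference missed the threshold without progenitor library 3 labelled mutant, postmitotic control 1 or postmitotic library 1 labelled mutant (adjusted p at most 0.0763).

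Tubb5 (chromosome 17, 35833921 to 35838306, minus strand), a beta-tubulin of dividing cells and young neurons, was called by edgeR in the difference between the experiments and in neither experiment alone, while DESeq2 also called it higher in the postmitotic one. Its progenitor levels were 3345.7, 2872.0, 2894.9 and 3060.1 CPM in controls and 2786.4, 3022.8, 2896.7 and 2747.0 CPM in those labelled mutant, which overlap. Postmitotic controls were at 2940.4, 3159.3 and 3212.3 CPM, and all libraries labelled mutant stood above them, at 3898.3, 3609.1 and 3400.4 CPM. The log2 fold changes were -0.09 ± 0.06 and 0.23 ± 0.07, and their difference was 0.32 ± 0.09 (edgeR adjusted p = 0.0431). That difference lost its call without any of 10 of the 14 libraries (adjusted p at most 0.122), and kept it without progenitor control 2 or 3, progenitor library 2 labelled mutant or postmitotic library 3 labelled mutant. Tubb3, the beta-tubulin used as a marker of neurons, had log2 fold changes of -0.01 (progenitor) and 0.21 (postmitotic), and Tubb4a, a more mature isotype, at -0.16 and 0.00. None of these 4 values passed the test.

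Among the 6 structural microtubule-associated proteins, Map2 and Map1b rose and Map7d2 fell in the progenitor experiment. Map1b, abundant in growing axons, spanned 3302.2 to 4287.7 CPM in controls and 4348.7 to 4808.5 CPM in the libraries labelled mutant, a log2 fold change of 0.26 ± 0.08 (edgeR adjusted p = 0.0404). Map2, the marker of dendrites, spanned 1905.3 to 2247.2 and 2263.1 to 2534.6 CPM, a log2 fold change of 0.22 ± 0.06 (edgeR adjusted p = 0.0255). Map7d2, a microtubule-binding partner of kinesin-1, spanned 73.9 to 89.9 and 66.7 to 70.8 CPM, a log2 fold change of -0.24 ± 0.06 (edgeR adjusted p = 0.0174). The groups did not overlap for any of the 3. Map1a, the counterpart of Map1b in mature neurons, just missed the threshold at -0.21 ± 0.07 (edgeR adjusted p = 0.0501). None of the 6 was called in the postmitotic experiment, where their log2 fold changes ran from -0.24 (Map7d2) to 0.11 (Mapt, tau). Map1b lost its call in 7 of 8 left-out libraries, all but control 2 (adjusted p at most 0.101), and Map2 in 3 of 8, libraries 1, 2 and 3 labelled mutant (at most 0.0693).

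Dcx (chromosome X, 143855842 to 143933311, minus strand), the doublecortin of migrating and newly settled neurons, rose in the progenitor experiment. Its levels were 872, 1067, 959.8 and 973.5 CPM in controls and 1104.7, 1209.7, 1122.5 and 1196 CPM in the libraries labelled mutant. Controls were all lower, with a log2 fold change of 0.26 ± 0.07 (edgeR adjusted p = 0.0154). Its relative Dclk2 rose by 0.19 ± 0.05 (edgeR adjusted p = 0.0199), from 150.1 to 167 CPM in controls to 178 to 190.3 CPM in those labelled mutant, and Dclk1 was at 0.02 and did not pass. Without library 2 or 3 labelled mutant Dclk2 missed the threshold (adjusted p at most 0.0556). Postmitotic Dcx was at 1324, 1176 and 1158 CPM in controls and at 1252, 1457 and 1354 CPM in those labelled mutant. These overlap, and none of the 3 doublecortin genes was called there, with log2 fold changes from 0.10 to 0.17.

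Nav2 (chromosome 7, 48908716 to 49610090, plus strand), a neuron navigator that follows growing microtubule ends, had the largest rise of any member in the progenitor experiment. Its levels were 198, 264, 217 and 207 CPM in controls and 281, 281, 299 and 309 CPM in the libraries labelled mutant. No control reached the libraries labelled mutant, and the log2 fold change was 0.40 ± 0.08 (edgeR adjusted p = 0.00581). Nav1 was at 0.06 and Nav3 at -0.26 ± 0.09 (edgeR adjusted p = 0.0579), so Nav2 was the 1 navigator called by edgeR, while DESeq2 also called Nav3, as lower. Postmitotic Nav2 was at 251, 242 and 237 CPM in controls and 228, 262 and 257 CPM in those labelled mutant, which overlap.

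None of the 3 end-binding proteins (Mapre1, Mapre2, Mapre3), the 4 stathmins, which sequester tubulin dimers, or the severing enzymes Spast and Katna1 was called in either experiment by edgeR. Progenitor log2 fold changes in these groups ran from -0.14 to 0.01, from -0.17 to 0.08 and from 0.08 to 0.12, and postmitotic ones from -0.00 to 0.12, from -0.05 to 0.21 and from 0.09 to 0.10. The highest of these was Stmn1, the stathmin of progenitors and young neurons, at 0.21 in the postmitotic experiment. None of the 4 growth cone membrane proteins (Gap43, Marcks, Marcksl1, Basp1) was called either, with values between -0.12 and 0.07 in the progenitor and between -0.01 and 0.13 in the postmitotic experiment.

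Of the 5 collapsin response mediators, which bind tubulin dimers and relay guidance signals to the growth cone, Dpysl4 fell in the progenitor experiment by 0.20 on the log2 scale (edgeR adjusted p = 0.0279). It spanned 156 to 186 CPM in controls and 146 to 152 CPM in the libraries labelled mutant, and lost its call in 6 of 8 left-out libraries, all but controls 2 and 3 (adjusted p at most 0.085). Dpysl5 was at 0.15 (edgeR adjusted p = 0.0892). Postmitotic Dpysl4 was at -0.19 and the other 4 between 0.05 and 0.18, with no call. Of the ankyrins, Ank3, the organiser of the axon initial segment, rose in the progenitor experiment, from 375 to 441 CPM in controls to 448 to 493 CPM in those labelled mutant, a log2 fold change of 0.21 ± 0.06 (edgeR adjusted p = 0.0291). That call was lost without control 3 or 4 or library 2, 3 or 4 labelled mutant (adjusted p at most 0.0842), and Ank2 was at 0.15 without passing.

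All 4 neurofilament genes, which encode the intermediate filaments of axons, had negative log2 fold changes in the progenitor experiment, and Nefh and Ina passed the test. Nefh (chromosome 11, 4938754 to 4948064, minus strand), the heavy subunit that comes last in maturation, was at 23.9, 17.7, 14.3 and 18.1 CPM in controls and at 11.4, 13.0, 12.8 and 12.7 CPM in the libraries labelled mutant. The lowest control stood above the highest of the others, and the log2 fold change was -0.57 ± 0.13 (edgeR adjusted p = 0.0121). Ina (chromosome 19, 47014698 to 47025327, plus strand), the alpha-internexin of young axons, was at 298, 276, 251 and 286 CPM in controls and 218, 255, 219 and 229 CPM in those labelled mutant. Control 3 lay below library 2 labelled mutant, so the groups overlapped, with a log2 fold change of -0.27 ± 0.07 (edgeR adjusted p = 0.0152). Without library 1 or 3 labelled mutant Ina lost its call (adjusted p at most 0.0535). Postmitotic Nefh was at 9.52, 12.9 and 10.5 CPM in controls and 10.3, 7.98 and 10.3 CPM in those labelled mutant. Postmitotic Ina was at 246, 242 and 253 CPM against 238, 228 and 235 CPM, which did not overlap but did not pass the test.

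Nefl (chromosome 14, 68083863 to 68089095, plus strand), the light neurofilament subunit, rose in the postmitotic experiment. Its levels were 81.7, 78.4 and 85.9 CPM in controls and 128, 105 and 102 CPM in the libraries labelled mutant. The groups were apart, with a log2 fold change of 0.45 ± 0.09 (fold 1.36; edgeR adjusted p = 0.0156), and the call was lost without control 1 or control 2, at an adjusted p of up to 0.11. Progenitor Nefl was at 227, 208, 141 and 219 CPM in controls and 130, 198, 158 and 179 CPM in those labelled mutant, which overlap. Its difference between experiments, 0.71, did not pass (edgeR adjusted p = 0.0962). Nefm, which overlaps Nefl on the other strand, was at 0.06 in the postmitotic experiment.

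Islr2 (chromosome 9, 58196297 to 58204319, minus strand), a leucine-rich repeat surface protein of growing axons, had the largest change of any member in the postmitotic experiment. Its levels were 208, 187 and 204 CPM in controls and 359, 398 and 319 CPM in the libraries labelled mutant. All of the latter stood above the controls, with a fold of 1.80 and a log2 fold change of 0.84 ± 0.08 (edgeR adjusted p = 8.7e-05). Its progenitor levels were 205, 254, 165 and 284 CPM in controls and 187, 320.4, 170.5 and 239.8 CPM in those labelled mutant. Its spread there was wide and the groups overlapped, so the difference between experiments of 0.83 ± 0.31 did not pass (edgeR adjusted p = 0.141). The gene Islr overlaps Islr2 on the same strand, so reads could be split between them.

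Cobl (chromosome 11, 12236608 to 12464960, minus strand), an actin nucleator that acts in dendrite branching, also rose in the postmitotic experiment. It was at 47.5, 50.2 and 50.9 CPM in controls and at 62.7, 68.2 and 72.2 CPM in the libraries labelled mutant. The groups were apart, with a log2 fold change of 0.45 ± 0.08 (fold 1.37; edgeR adjusted p = 0.00679). With libraries 1 and 2 of each group alone, Cobl missed the threshold (edgeR adjusted p = 0.0507). Progenitor Cobl was at 46.5, 55.9, 47.8 and 58.9 CPM in controls and at 69.2, 71.0, 55.5 and 49.3 CPM in those labelled mutant, which overlap.

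Of the 4 kinesins, Kif5a, a neuronal heavy chain of kinesin-1, fell in the progenitor experiment by 0.18 on the log2 scale (edgeR adjusted p = 0.0461). Its groups overlapped, at 1003.2 to 1184.2 CPM in controls and 933 to 1016.7 CPM in the libraries labelled mutant, and the call was lost in 7 of 8 left-out libraries, all but control 3 (adjusted p at most 0.141). Kif5c and Kif1a were both at -0.05 and Kif21b at 0.12, none of which passed. The 4 postmitotic values lay between -0.07 and 0.02 with no call.

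**Figure D2:**
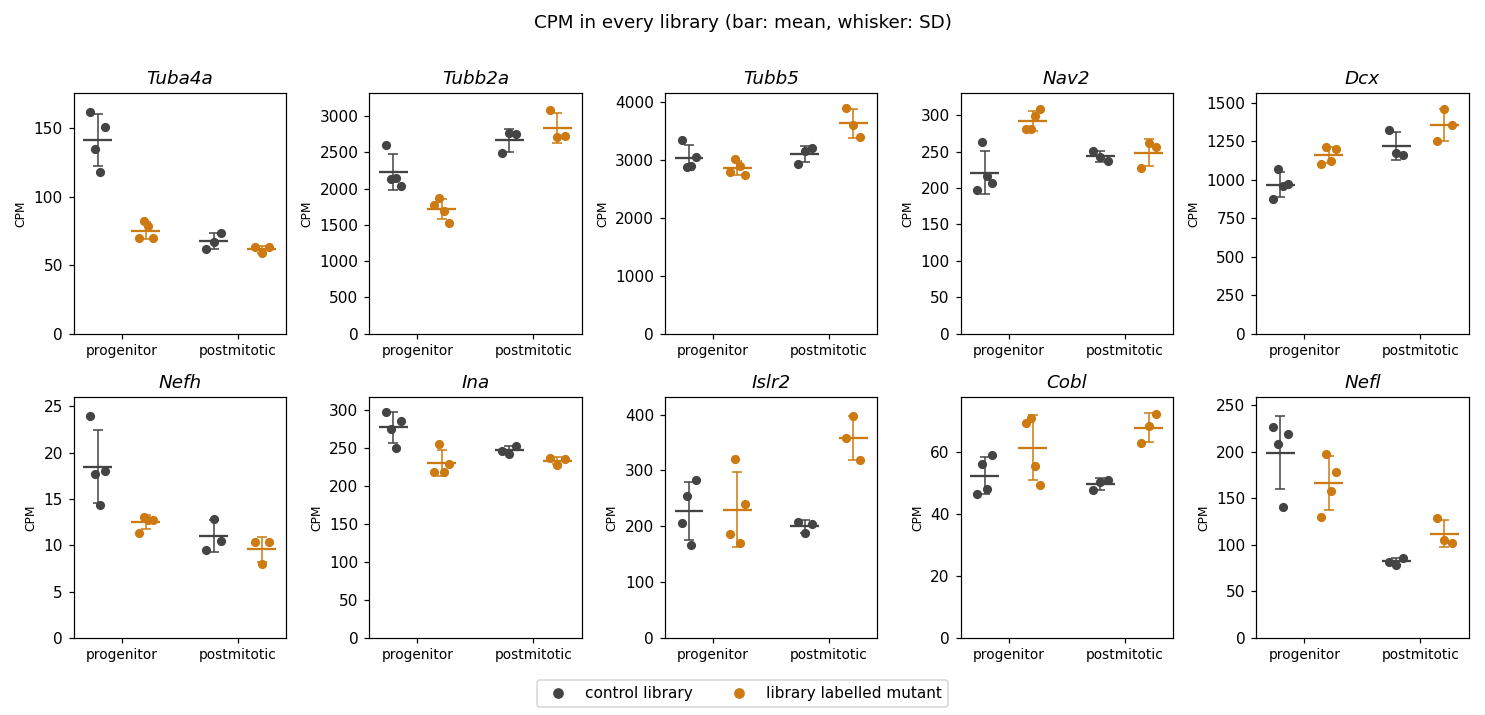
CPM (vertical axes, from 0) of the 10 genes with values in every library, as points for control libraries (grey) and libraries labelled mutant (orange) in the progenitor (n = 4 each) and postmitotic (n = 3 each) experiments, with the mean as a bar and the SD as a whisker. Progenitor Tuba4a, Tubb2a, Nav2, Dcx and Nefh and postmitotic Tubb5, Ina, Islr2, Cobl and Nefl show groups that do not overlap.

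A member was assigned to immature neurons when it is known as a gene of newborn, migrating or outgrowing neurons (21 genes) and to mature neurons when its level is known to climb as axons and dendrites settle (10 genes), and 19 were assigned to neither. The lists were made with earlier results of these data known, so the contrast between stages is a description and depends on the assignment. Nav1 and Dclk1 were assigned to immature neurons, but their relatives Nav2 and Dclk2 to neither. Ina, named above as the alpha-internexin of young axons, was also assigned to neither. In the progenitor experiment the immature members had 3 rises (Dcx, Map1b, Tubb2b), 1 fall (Dpysl4) and a median log2 fold change of 0.04, with 14 of 21 above 0. The mature members had 1 rise (Map2), 3 falls (Tuba4a, Nefh, Kif5a) and a median of -0.17, with 3 of 10 above 0. Leaving out each library in turn moved the immature median between 0.00 and 0.07 and the mature median between -0.24 and -0.15. In the postmitotic experiment the immature members had 1 rise (Islr2) and a median of 0.10, with 18 of 21 above 0, and the mature members 1 rise (Nefl) and a median of -0.01, with 4 of 10 above 0. The corresponding ranges were 0.07 to 0.12 and -0.05 to 0.01. Postmitotic calls made up 4.76% of immature and 10% of mature members, beside 1.96% of all genes. Medians over all genes tested were 0.00 (progenitor) and -0.00 (postmitotic).

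**Figure D3:**
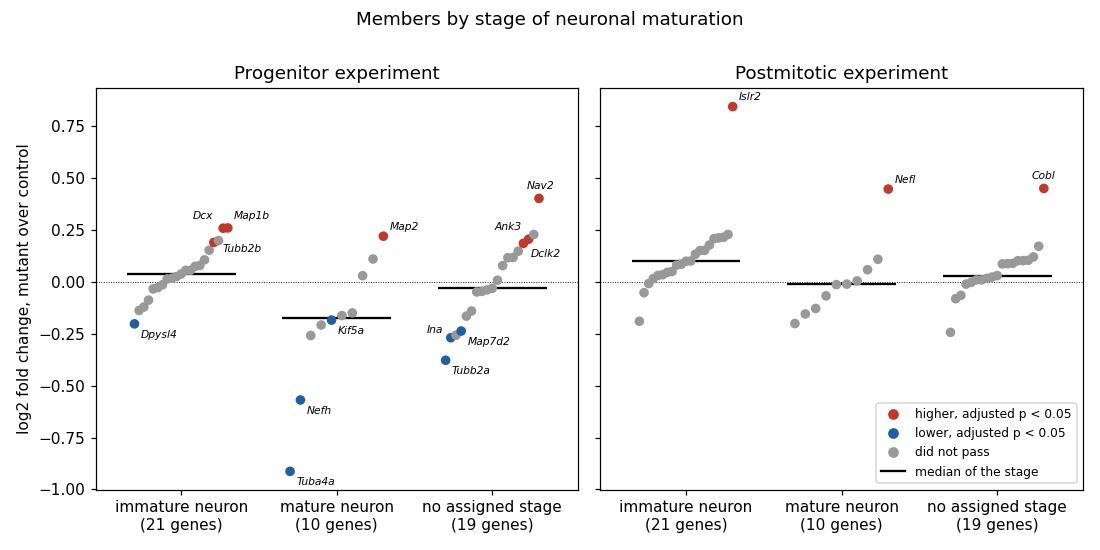
Log2 fold change (vertical axis) of every member, libraries labelled mutant over control, split into immature neuron genes (21), mature neuron genes (10) and genes of no assigned stage (19), each in order of value, with the median as a line. In the progenitor panel the mature median lies at -0.17 and the immature one at 0.04, and in the postmitotic panel they lie at -0.01 and 0.10.

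Separation of the groups was counted too. It uses the same libraries as the fold changes, so it describes the same values and is no independent evidence. The members were also chosen with earlier results of these data known. For 15 of the 50 members (30%) all 3 postmitotic libraries labelled mutant lay above all 3 controls, beside 7.98% of all genes tested, and for 4 (8%) all lay below, beside 8.43%. Among the 15 were Tubb3, Tubb2b, Tubb5, Tuba1a, Stmn1, Dpysl3, Dpysl5 and Islr2, 8 of the 21 immature members, and 12 of the 15 did not pass the adjusted test. The postmitotic values that did not pass reached 0.23 on the log2 scale (Tubb5). Among progenitor libraries 8 members (16%) were separated upward, beside 13.7% of all genes, and 6 (12%) downward, beside 13.3%.

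The difference between the experiments, postmitotic minus progenitor, was called for 3 of the 50 members, all of them tubulins and all higher: Tuba4a, Tubb2a and Tubb5. That is 6% of members, beside 6.94% of all 15643 genes tested, of which 3.10% were higher and 3.84% lower. No member was called lower by edgeR, 2 were lower at an unadjusted p under 0.05, and DESeq2 called 1, Nav2, which was at -0.37 in edgeR (adjusted p = 0.0605). The higher calls came to 5 without progenitor control 3, and to 1 without progenitor library 3 labelled mutant, postmitotic control 1 or postmitotic library 1 labelled mutant.

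Other genes of the same machinery, in 5 lists taken from general knowledge, were called at a share near that of all genes in the progenitor experiment. Of 206 such genes tested there, 30 rose (14.6%) and 22 fell (10.7%). In the tubulin folding and modification list 4 of 23 rose and 4 fell: Ttll7, a polyglutamylase, was at -0.45 ± 0.06, Ttl, the ligase that puts back the last tyrosine of alpha-tubulin, at -0.24 ± 0.04, and Agbl5, a deglutamylase, at 0.34 ± 0.06. Among 7 further tubulins only Tubb4b was called, at -0.40 ± 0.06. Other microtubule-associated and end proteins had 8 rises and 6 falls of 53, with Tppp, a tubulin polymerisation protein, at -0.55 ± 0.05, Map9 at 0.40 ± 0.05 and Trim67 at 0.48 ± 0.07. Other kinesins and dynein genes had 12 rises (20.3%) and 4 falls (6.78%) of 59. Kif11, Kif15, Kif22, Kif23 and Kifc1 were among the rises. In this list Kifc2 was at -0.54 ± 0.06, Hook2, a dynein adaptor, at 0.43 ± 0.05 and Kif7, the kinesin of the primary cilium, at 0.42 ± 0.09. Growth cone actin and spectrin genes had 6 rises and 7 falls of 64, with Nckap1 of the actin-regulating WAVE complex at -0.61 ± 0.06, Sptbn4, the spectrin of the axon initial segment, at 0.47 ± 0.06 and Add3 at -0.32 ± 0.05. Of the same 206 genes, 1 was called by edgeR in the postmitotic experiment, the formin Daam1 at 0.37 ± 0.07 (adjusted p = 0.0127). That is 0.485%, beside 1.96% of all genes.

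Markers of cell types moved with the labels as well. Over progenitor libraries the summed level of 6 excitatory neuron markers was 1667 to 1889.6 CPM in controls and 1406 to 1527 CPM in the libraries labelled mutant, with 2 rises and 2 falls, so the labelled cell type was present in all 8 libraries. The sum of 10 astrocyte markers was 1847 to 2394 CPM in controls and 1476 to 1835 CPM in those labelled mutant, with 4 falls. Of 11 tested markers of radial glia and cycling cells 4 rose, with sums of 209 to 287 against 268 to 327 CPM. These 4 were genes of cycling cells (Cenpf, Top2a, Ccnb1, Mki67), and no radial glia marker was called. Of 10 endothelial and mural markers 3 rose, with sums of 364 to 523 against 441 to 588 CPM. These 3 were mural genes (Abcc9, Kcnj8, Rgs5), while all 10 had log2 fold changes above 0. Of 10 oligodendrocyte lineage markers 3 rose, at 548 to 639.7 against 579 to 694 CPM, and of 10 microglial markers 2 fell, at 153 to 224 against 127 to 170.1 CPM. Only the 3 oligodendrocyte markers that rose (Cspg4, Pdgfra, Mog) had log2 fold changes above 0, and the median of that list was -0.11. The sum of 12 interneuron markers was 542 to 681 against 549.6 to 651 CPM with 2 falls, and that of 6 meningeal fibroblast markers 41.8 to 563 against 75.7 to 669 CPM with none called. No marker of these 8 lists averaged under 0.05 CPM in the progenitor libraries. A further list, of red blood cells, had 1 tested marker, Alas2. It rose, with list sums of 5.33 to 8.62 CPM in controls against 11.3 to 16.2 CPM. The part of all these markers in the progenitor results was not tested.

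Lists of neuronal layers, added after values had been seen, also held calls. Of the deep-layer list 25% was called in the postmitotic and 16.7% in the progenitor experiment. The upper-layer shares were 37.5% and 50%, and those of all genes 1.96% and 23.4%. In the postmitotic experiment 12 deep-layer and subplate markers summed to 537 to 548 CPM in controls and 593 to 692 CPM in the libraries labelled mutant, with 3 rises and no overlap, while 8 upper-layer markers had 3 falls, at 2028.5 to 2106.2 against 1867 to 2101.4 CPM. The upper-layer list had 4 rises in the progenitor experiment, at 1395 to 1609.6 against 1594 to 1888 CPM. The deep-layer list had 2 falls there, at 503 to 689.7 against 449 to 657 CPM, and both pairs of sums overlapped. None of these 20 markers averaged under 0.05 CPM. Whether they bear on Islr2, Cobl and Nefl, or on the progenitor members, was not tested. None of the lists for radial glia, astrocytes, oligodendrocytes, microglia or endothelium had a call by edgeR in the postmitotic experiment, though all 10 astrocyte markers had log2 fold changes below 0 and 6 of them an unadjusted p under 0.05, with sums of 879 to 980.3 CPM in controls and 759 to 883 CPM in those labelled mutant. The 6 excitatory neuron markers had 1 rise (Neurod2) and 3 falls (Slc17a6, Camk2a, Neurod6) there, with sums of 1357 to 1448 against 1321 to 1367 CPM. Neurod6 is the locus that carries NexCre.

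Long genes and short genes did not divide evenly between the progenitor calls. Called members that rose had a median summed exon length of 15.8 kb (2.29 to 34.8 kb) and those that fell 3.99 kb (1.61 to 6.99 kb), with a median of 5.95 kb over all 50. Spearman's rho between exon length and log2 fold change was 0.399 over the 50 members and 0.12 over all 15033 genes with a length. Both are descriptions across genes of the same libraries, which are not independent. The decile medians of all genes ran from -0.02 at 1.27 kb to 0.09 at 12.5 kb. With the trend on exon length removed, an alternative chosen after seeing the data, 3 members rose (Dcx, Tubb2b, Nav2) and 10 fell (Map1a, Map7d2, Mapre2, Tubb2a, Tuba4a, Dpysl4, Nav3, Nefh, Ina, Kif5a). Map1b at 0.15, Map2 at 0.11, Dclk2 at 0.11 and Ank3 at 0.01 no longer passed, and the mature median was -0.19. The directions of the called tubulins and neurofilaments did not turn.

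**Figure D4:**
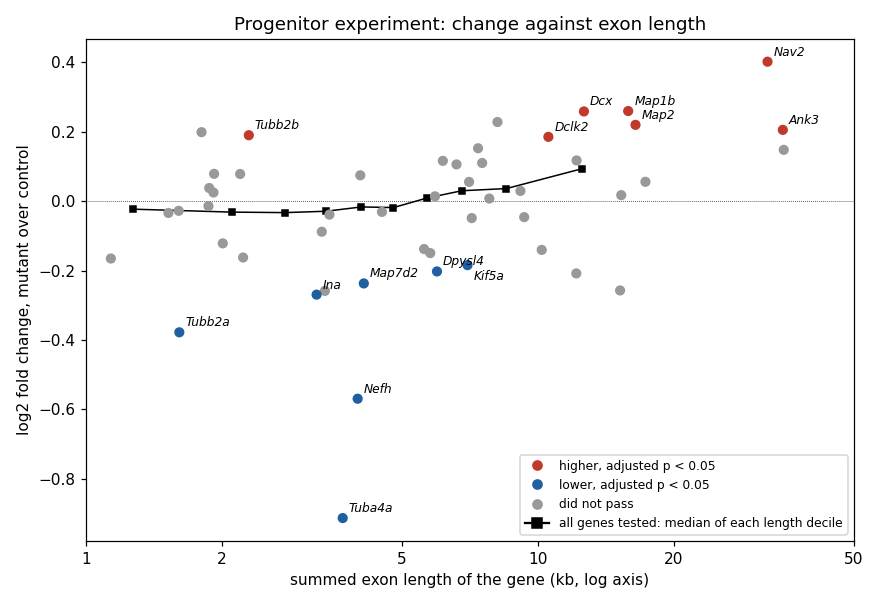
Log2 fold change of the 50 members in the progenitor experiment (vertical axis), libraries labelled mutant over control, against summed exon length in kb (log axis), with called members named and the median of each length decile over all genes as black squares. Of the members that rose, all but Tubb2b lie beyond 10 kb, and all that fell lie below 7 kb.

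With the summed level of Y-linked genes as a covariate, 1 member kept its call in the progenitor experiment. Tuba4a was at -1.01 ± 0.16 there (edgeR adjusted p = 0.00948) and 6.20% of all genes were called. Dcx and Map7d2, which both lie on chromosome X, were among those that lost their calls. Whether sex played a part in their change was not tested. The immature median was 0.00 and the mature median -0.27 in that fit. Across the progenitor calls, Tuba4a, Tubb2a, Nav2, Nefh, Dcx and Map7d2 passed with any 1 library left out, as did Islr2 and Cobl in the postmitotic experiment.

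The authors' deposited table called 7 members higher and 10 lower in the progenitor experiment, the 14 above among them, with Map1a, Tubb4a and Nav3 as the additional falls. For the postmitotic experiment the authors' deposited table called 4 higher, the 3 above and Tubb5 at a log2 fold change of 0.31 (adjusted p = 0.0458). Its mean counts matched those of libraries 1 and 2 of each group to 0.1% in 100% of genes averaging over 10 counts, and those of all 6 libraries in 0.792%.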

How the data were processed

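RNA was sequenced from 14 libraries of P5 layer II/III cortex (NEBNext Ultra II directional kit, 2x150 bases, per the labels' protocols). The authors deposited whole-number counts per gene symbol for each experiment, not normalised. HISAT2, featureCounts, DESeq2 and mm10 are named in the submitters' processing notes; the sources used here give no versions, annotation or strand setting. The authors also deposited DESeq2 tables, which per the file headers hold a mean count (a signal with no log scale), a log2 fold change, a test statistic (a score), p-values and their adjusted form. There, missing values had been overwritten by 0, so 5 member symbols were restored in each and an adjusted p of 0 was read as missing. There were 0 columns of other samples.

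Each table was fitted whole with edgeR 4.0.16 (R 4.3.3): filterByExpr, TMM, robust glmQLFit, glmQLFTest and Benjamini-Hochberg adjustment over all genes tested, with calls at an adjusted p under 0.05. The difference between experiments was the interaction in 1 fit of all 14 libraries. No replicates were merged, since chi-square over its degrees of freedom was 6.73 to 20.7 within groups. The fits were tested on simulated data. Planted log2 changes of 0.5 were recovered at 66% in the progenitor, 40.8% in the postmitotic and 21.2% in the difference fit. For changes of 1 the shares were 97.0%, 89.9% and 79.8%. A member that did not pass may therefore still have changed. Positions, exon lengths and coding sequences are from GENCODE M21 on GRCm38. The members and lists were chosen with earlier results of these data known.

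Values in every library are given for members called in both experiments, for members called in the difference, and for the 6 smallest p-values among calls of each experiment; pathway lists give up to 3 called genes. The coding ends of the beta-tubulins were chosen after values were seen. Alternatives were DESeq2 1.42.0, limma-voom 3.58.1, other scaling and filters, another threshold, a replicate block, Y-linked CPM as a covariate, libraries 1 and 2 alone, removal of an exon length trend, and leaving out each library. Some sequences are not reported here.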

Additional observations from a re-analysis of the deposited data

Results flagged for a closer look

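Within the progenitor groups of 4, a library was set apart when its gap to the nearest other, as a part of the range, passed Dixon's 95% critical value. Of 100 groups tested over the 50 members, 3 held such a library, and chance gives about 1 in 20. Map1b was highest in 1 library labelled mutant at 4808.5 CPM (gap 0.854 of the range), Ank2 likewise at 1490.1 CPM (0.893), and Stmn1 in 1 control at 1399.5 CPM (0.900). The groups of 3 were not tested in this way.

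For 3 members the change itself differed between the experiments by the interaction term in edgeR. The postmitotic log2 fold change was above the progenitor one by 0.79 for Tuba4a, 0.47 for Tubb2a and 0.32 for Tubb5.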

How the results depend on the processing

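No member changed direction past the threshold under any alternative, and the counts of calls moved as follows. At an adjusted p under 0.01, the progenitor experiment had 1 member higher and 2 lower, and the difference 1 higher. With Y-linked CPM as a covariate the progenitor counts were 0 and 1. Removal of the exon length trend, chosen after seeing the data, gave 3 higher in the progenitor experiment, 6 in the postmitotic one and 5 in the difference. DESeq2 gave 5 higher and 1 lower in the difference. Leaving out each library gave 2 to 7 higher and 4 to 11 lower in the progenitor experiment (2 higher without library 2 or 3 labelled mutant, and 11 lower without control 3), 2 to 3 higher and 0 to 1 lower in the postmitotic one, and 1 to 5 higher and 0 to 1 lower in the difference. The cause of these moves was not tested. Deviations of same-numbered libraries from their group means correlated at -0.436 to 0.0931 in the progenitor and -0.196 to 0.0256 in the postmitotic experiment. Differently numbered libraries correlated at -0.369 to 0.454 and -0.0984 to 0.177. With deviations taken within groups this small, these values cannot show whether a litter or day was shared. With a replicate block the counts were 5 higher and 6 lower in the progenitor experiment, 3 and 0 in the postmitotic one, and 3 and 0 in the difference, where Islr2 was called (0.84, edgeR adjusted p = 0.013) and Tubb5 was not. At 3 libraries per group, small changes, not only those of low genes such as Nefh, are limited by the spread between libraries.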

Other observations

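The genes whose log2(CPM + 0.5) followed Tuba4a most closely over the 8 progenitor libraries, among 11627 genes with a mean of at least 5 CPM, were Rai2 (Pearson's r 0.998), Ncdn (0.996), Pak6 (0.995), Tmem135 (0.994) and Plekhb2 (0.994). The same measure over the 6 postmitotic libraries, among 11809 genes, placed Lhfpl2 (0.997), Ldb2 (0.996), Zfp804a (0.995), Tbc1d14 (0.994) and Dpy19l1 (0.993) nearest to Islr2. The points of each are the same libraries and share their group labels, so both are descriptions of likeness without a test.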
